A study of Homo sapiens with 12 samples.

Results

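The 10 genes described here encode mucins (MUC1, MUC4, MUC5AC, MUC5B, MUC13, MUC16 and MUC20) and trefoil factors (TFF1, TFF2 and TFF3), and were taken by symbol from a deposited table of 60564 genes. Each symbol matched 1 row. They were measured by RNA-seq in BxPC-3 and CFPAC-1, established human lines labelled as pancreatic ductal adenocarcinoma (PDAC). The 4 groups were BxPC-3 cells starved of serum for 48 h to induce primary cilia (induced), BxPC-3 cells in normal culture (control), CFPAC-1 cells starved in the same way (induced) and CFPAC-1 cells in normal culture (control), with 3 libraries each. The submitters report that 78% of induced and 5% of control BxPC-3 cells, and 39% of induced and 7% of control CFPAC-1 cells, carried a cilium, without an error. Starvation and cilia came together in every induced library, so their parts in a difference cannot be told apart. Each line is a single tumour's cells, and the labels do not say whether the 3 libraries of a group came from separate cultures, so the p-values measure a spread between libraries that may be technical.

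Mucins are long proteins whose serine- and threonine-rich repeats carry dense O-linked sugar chains. Gel-forming mucins such as MUC5AC and MUC5B are secreted and polymerise into mucus, whereas MUC1, MUC4, MUC13, MUC16 and MUC20 are anchored in the apical membrane and pass signals into the cell. Trefoil factors are small, disulfide-rich secreted peptides made beside mucins by mucous cells of the gut and released after injury. Normal pancreatic duct epithelium makes MUC1 and little MUC4 or MUC5AC, and duct cells turn on MUC4, MUC5AC and trefoil factors in precursor lesions of pancreatic cancer.

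Levels are given as FPKM (fragment counts scaled by transcript length and by each library's total), recovered from the deposited log2(FPKM + 1) values. The depth in reads is unknown. Summed FPKM was 258000 to 315000 per library, and mitochondrially encoded genes took 11.6% to 34% of it. The libraries labelled CFPAC-1 control 2 and 3 stood apart from their group. Across tested genes, which are not independent, they correlated at r = 0.99 with each other and at a mean r of 0.803 with the other 4 CFPAC-1 libraries, against 0.944 among those 4. The duct keratin KRT19 was 254, 627 and 556 FPKM in induced CFPAC-1 libraries, against 532, 7.42 and 7.67 FPKM in controls 1, 2 and 3. The epithelial surface protein EPCAM was 11.2, 14.9 and 13.0 FPKM in induced CFPAC-1 libraries, against 14.8, 0.963 and 1.04 FPKM in those controls. Tests against the CFPAC-1 controls are therefore given with and without controls 2 and 3 for the 10 genes. Fits without them leave control 1 as the only CFPAC-1 control and take its spread from the other groups. Calls lost or gained in those fits are therefore weak, and a loss may come from fewer libraries. In the marker lists, 7 of 9 duct markers averaged at least 1 FPKM in each BxPC-3 group and 6 of 9 in each CFPAC-1 group. Their summed level was 461.5 to 1050 FPKM in induced CFPAC-1 libraries and 654 to 1093 FPKM in CFPAC-1 controls. The duct keratin KRT7 was 395.5 to 586 FPKM in BxPC-3 libraries and 0.340 to 2.01 FPKM in CFPAC-1 libraries. The junction protein CDH1 was 38.2 to 61.0 FPKM in BxPC-3 and at most 0.892 FPKM in CFPAC-1. The mesenchymal filament VIM was 4.41 to 11.5 FPKM in BxPC-3 and 569 to 975 FPKM in CFPAC-1. KRT7, CDH1 and VIM go against a duct cell pattern in CFPAC-1, but the lists were mixed. In induced libraries KRT8, KRT18 and SOX9 averaged 128, 195 and 15.5 FPKM in CFPAC-1, against 54.3, 132 and 3.14 FPKM in BxPC-3. KRT19 and EPCAM averaged lower in induced CFPAC-1. Of 9 mesenchymal markers, 3 averaged at least 1 FPKM in induced CFPAC-1 and 1 in induced BxPC-3, and CDH2 was 0 in induced CFPAC-1. The duct anion channel CFTR was at most 0.0181 FPKM in BxPC-3 and 0 in all 6 CFPAC-1 libraries. The endocrine genes INS, GCG and SST were at 0 everywhere. In bulk samples, fewer expressing cells and less RNA per cell cannot be told apart.

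Promoter windows from RefSeq (GRCh38.p14) were available for 4 of the 10 genes. The 3 printed below are the 250 bases before the start of transmembrane mucins found in different lines: MUC1 in both, MUC4 in BxPC-3 and MUC13 in CFPAC-1. They are written 5′ to 3′ on the gene's strand, and positions count back from -1, the base before the start. Capitals mark matches, on either strand, to the TATA box (TATAAA), the GC box of SP1-like factors (GGGCGG), the E-box bound by SNAI and ZEB repressors (CACCTG), an HNF1 half-site (GTTAAT) and the forkhead motif (TGTTTAC).
MUC1, chr1:155192916-155193165, minus strand: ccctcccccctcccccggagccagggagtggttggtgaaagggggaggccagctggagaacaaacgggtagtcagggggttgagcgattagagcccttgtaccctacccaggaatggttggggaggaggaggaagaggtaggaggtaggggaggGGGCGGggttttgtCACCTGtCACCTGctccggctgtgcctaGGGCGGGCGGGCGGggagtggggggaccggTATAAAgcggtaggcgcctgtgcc
MUC4, chr3:195811930-195812179, minus strand: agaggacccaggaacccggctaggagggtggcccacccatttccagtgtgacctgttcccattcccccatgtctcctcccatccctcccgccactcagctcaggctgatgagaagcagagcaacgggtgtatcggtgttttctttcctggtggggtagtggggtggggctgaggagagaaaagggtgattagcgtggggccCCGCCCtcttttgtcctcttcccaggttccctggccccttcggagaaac
MUC13, chr3:124934752-124935001, minus strand: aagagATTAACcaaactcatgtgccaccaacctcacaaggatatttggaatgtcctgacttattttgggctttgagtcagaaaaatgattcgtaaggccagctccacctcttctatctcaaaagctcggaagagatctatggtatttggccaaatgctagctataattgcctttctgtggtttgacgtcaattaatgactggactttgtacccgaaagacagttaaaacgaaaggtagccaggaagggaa
The MUC1 window was 66% G and C and held a TATA box at -24, 4 GC boxes (at -96, -54, -50 and -46, the last 3 overlapping each other) and 2 E-boxes (at -82 and -75). The MUC4 window was 60.4% G and C, with a single GC box on the other strand at -49. The MUC13 window was 41.6% G and C, with neither a TATA nor a GC box, and held 1 HNF1 half-site on the other strand at -245. None of the 3 windows held the forkhead motif. The MUC4 and MUC13 windows lie inside the span that GENCODE gives the gene, which starts further upstream. Of 35116 RefSeq windows, cut to the same stretch before the start, 10.7% held the TATA box, 42.6% the GC box, 17.5% the E-box, 6.23% the HNF1 half-site and 2.98% the forkhead motif. A match describes letters and does not show that a factor binds.

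Of the 10 genes, MUC1 alone was above 1 FPKM in all 12 libraries. It is the widely expressed transmembrane mucin of ductal epithelia, whose cytoplasmic tail is phosphorylated by SRC-family kinases, and its gene lies at chr1:155185824-155192916 (GENCODE release 29, GRCh38, minus strand). MUC1 was 18.4, 10.1 and 9.70 FPKM in induced BxPC-3 libraries, against 7.92, 11.7 and 8.26 FPKM in BxPC-3 controls. The BxPC-3 groups overlapped. In induced CFPAC-1 libraries MUC1 was 10.6, 35.3 and 31.5 FPKM, against 9.23, 1.49 and 1.58 FPKM in CFPAC-1 controls. All induced values lay above all control values by range, as for 14% of tested genes in CFPAC-1, but control 1 was close to induced 1.

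Changes were tested with limma on log2(FPKM + 1) over the 12860 genes with at least 1 FPKM in at least 3 libraries, and adjusted p-values are Benjamini-Hochberg values over all of them, with a threshold of 0.05. In BxPC-3, MUC1 changed by 0.38 (SE 0.56, log2 scale, adjusted p = 0.938). In CFPAC-1 it rose by 2.57 (SE 0.56, adjusted p = 0.0142), and the change was 1.23 (SE 0.59, adjusted p = 0.311) without controls 2 and 3. That call was also lost without control 2 (adjusted p = 0.0671), control 3 (0.0681), induced 2 (0.0567) or induced 3 (0.0551) alone. Of all tested genes, 16.6% passed in CFPAC-1 with every library (7.85% up and 8.77% down) and 1.73% without controls 2 and 3. The difference between the induced lines did not pass (BxPC-3 minus CFPAC-1 -0.86, 95% interval -2.08 to 0.36, adjusted p = 0.255).

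MUC13, a transmembrane mucin best known from intestinal and colonic epithelium (chr3:124905442-124953819, minus strand), was the most abundant of the 10 genes in 4 CFPAC-1 libraries. It was 20.3, 62.0 and 73.0 FPKM in induced CFPAC-1 libraries, against 46.1 FPKM in control 1 and listed at 0 in controls 2 and 3. In induced CFPAC-1 it stood above 86.1% to 95.8% of tested genes. The value of control 1 lay within the induced range, so the contrast came from controls 2 and 3 alone. The change was 3.68 (SE 1.16, log2 scale, adjusted p = 0.0515), and -0.03 (SE 0.55, adjusted p = 1) without those libraries. Without control 1 it was 5.53 (adjusted p = 2.73e-06), and with only genes of a mean FPKM of at least 5 tested, the change of 3.68 passed (adjusted p = 0.047). In BxPC-3, MUC13 was 0.498, 0.431 and 0.438 FPKM in induced libraries, against 0.356, 0.513 and 0.696 FPKM in controls, with overlapping groups and a change of -0.06 (adjusted p = 1).

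Between the induced lines, MUC13 was lower in BxPC-3 by a log2 difference of -4.99 (SE 1.16, adjusted p = 0.00658), and no induced library of one line overlapped the other. Of all tested genes, 36.2% passed in that comparison (21.4% higher and 14.8% lower in BxPC-3), and 54.5% had ranges that did not overlap. MUC13 entered the test through its CFPAC-1 libraries alone, as MUC4 and MUC20 did through BxPC-3. Each was thus likely to differ between lines, and their calls are not counted as support.

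MUC4 and MUC20 were found mainly in BxPC-3. MUC4, whose extracellular part interacts with ERBB2, lies at chr3:195746765-195812277 on the minus strand, and MUC20, a short transmembrane mucin known to dampen MET signalling, lies 5642 bases away on the opposite strand (chr3:195720882-195741123). MUC4 was 4.24, 2.18 and 2.33 FPKM in induced BxPC-3 libraries, against 3.95, 5.44 and 4.69 FPKM in BxPC-3 controls. The groups overlapped through induced 1. The change was -0.57 (SE 0.20, 95% interval -1.01 to -0.13, unadjusted p = 0.0150, adjusted p = 0.44 in limma) and did not pass over all genes. MUC4 was at most 0.0065 FPKM in induced CFPAC-1 libraries and at most 0.00964 FPKM in CFPAC-1 controls, and was listed at 0 in 1 library of each. Its CFPAC-1 change of -0.0014 with all libraries and 0.00082 without controls 2 and 3 did not pass (adjusted p = 1 in both).

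MUC20 was 3.83, 2.41 and 2.12 FPKM in induced BxPC-3 libraries, against 2.58, 1.28 and 1.85 FPKM in BxPC-3 controls, and the groups overlapped (change 0.38, SE 0.21, adjusted p = 0.668). CFPAC-1 cells had 0.242, 0.119 and 0.133 FPKM in induced libraries, against 0.0801, 0.0516 and 0.0198 FPKM in controls. These CFPAC-1 ranges did not overlap, as for 14% of tested genes in that direction, at levels near 0. The change of 0.15 (adjusted p = 0.646) did not pass, and it was 0.11 without controls 2 and 3. Between the induced lines, MUC4 was higher in BxPC-3 by 1.93 (SE 0.20, adjusted p = 3.06e-05) and MUC20 by 1.68 (SE 0.21, adjusted p = 0.000121). Reads of MUC20 may be shared with its pseudogene copies and with the overlapping LINC00969 on the same strand, which was 1.40 to 2.54 FPKM in BxPC-3 and 0.270 to 1.12 FPKM in CFPAC-1. The next protein-coding gene beyond MUC4, the kinase TNK2, lies 51087 bases away and was 2.65 to 4.24 FPKM in BxPC-3 libraries and 3.09 to 6.51 FPKM in CFPAC-1 libraries.

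MUC16, the very large membrane mucin shed as an ovarian cancer serum marker, did not reach the level needed for testing. It was 1.11, 0.223 and 0.234 FPKM in induced BxPC-3 libraries, against 0.268, 0.313 and 0.347 FPKM in BxPC-3 controls. CFPAC-1 cells had 0.212, 0.0781 and 0.101 FPKM in induced libraries, against 0.1002, 0.00431 and 0.0067 FPKM in controls. The high BxPC-3 value was that of induced 1 alone, and the groups overlapped in both lines.

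**Figure D1:**
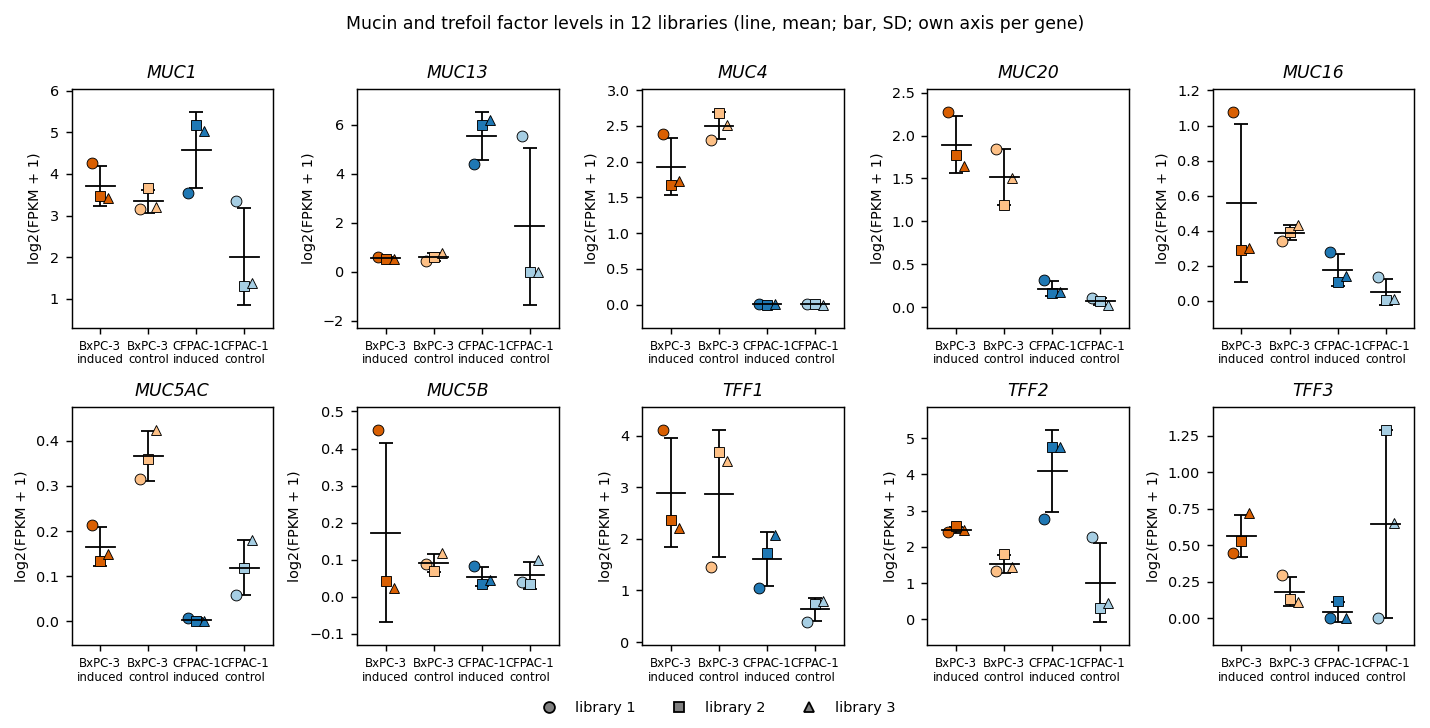
Level of each of the 10 genes, log2(FPKM + 1), in induced and control libraries of BxPC-3 and CFPAC-1, with 1 point per library (circle, library 1; square, library 2; triangle, library 3), a line at the mean and a bar of 1 SD (n = 3), and its own axis per gene. MUC4 and MUC20 sit high in BxPC-3 and near 0 in CFPAC-1, MUC13 is high in 4 CFPAC-1 libraries and 0 in CFPAC-1 controls 2 and 3, and TFF1 and MUC1 have 1 library of a group away from the other 2.

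The gel-forming mucins were scarce in both lines. MUC5AC, the mucus of gastric surface cells and of many pancreatic precursor lesions (chr11:1157953-1201138), was 0.160, 0.0964 and 0.108 FPKM in induced BxPC-3 libraries, against 0.244, 0.284 and 0.342 FPKM in BxPC-3 controls. In CFPAC-1 it was 0.00563, 0 and 0 FPKM in induced libraries, against 0.0410, 0.0850 and 0.133 FPKM in controls. Every induced library of a line lay under every control library of that line. Among tested genes, 4.84% were lower without overlap in BxPC-3 and 17.6% in CFPAC-1, and MUC5AC itself was too low for the test. MUC5B, of airway and salivary mucus, was 0.367, 0.0303 and 0.0160 FPKM in induced BxPC-3 libraries, against 0.0629, 0.0493 and 0.0844 FPKM in BxPC-3 controls, and no more than 0.0719 FPKM in CFPAC-1. Its groups overlapped in both lines. The coding sequences of MUC4, MUC5AC, MUC5B and MUC16 hold long repeats in which short reads are hard to place, so their levels are uncertain.

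Of 17 further mucin genes in the table, 2 reached 1 FPKM in any library, the sialomucin CD164 (4.45 to 38.8 FPKM) and PODXL, the podocalyxin of apical membranes (4.87 to 32.8 FPKM). Neither passed in any contrast with all libraries. CD164 alone passed between the induced lines without CFPAC-1 controls 2 and 3, where 44% of tested genes did. The intestinal gel-forming MUC2 reached 0.622 FPKM at most and the gastric gland mucin MUC6 0.0269 FPKM.

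The trefoil factors lie side by side on chromosome 21, all on the minus strand. TFF2, made with gland mucins by gastric neck cells (chr21:42346357-42351128), was 4.30, 4.92 and 4.49 FPKM in induced BxPC-3 libraries, against 1.53, 2.47 and 1.71 FPKM in BxPC-3 controls. All induced libraries lay above all controls, as did 12.4% of tested genes in this line. The change of 0.95 (SE 0.57, 95% interval -0.29 to 2.20) did not pass (adjusted p = 0.714). None of the 6 tested genes passed by limma in BxPC-3, where 43 of 12860 genes did (0.334%). At an unadjusted p under 0.05 there was 1, MUC4, against 1096 of the 12860. The 6 were MUC1, MUC4, MUC13, MUC20, TFF1 and TFF2.

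In CFPAC-1, TFF2 was 5.85, 25.9 and 26.0 FPKM in induced libraries, against 3.85, 0.247 and 0.360 FPKM in controls. The ranges did not overlap, as for 14% of tested genes in that direction, with control 1 next to induced 1. TFF2 rose by 3.08 (SE 0.57, adjusted p = 0.00743), and the change was 1.82 (SE 0.64, adjusted p = 0.172) without controls 2 and 3. KRT19 and EPCAM, given above, were low in the same 2 controls, and their part in the rise was not tested. Between the induced lines TFF2 was lower in BxPC-3 (log2 difference -1.62, SE 0.57, adjusted p = 0.0440), without overlap. That call was lost without any one BxPC-3 library (adjusted p = 0.0578 to 0.0599 for controls 1, 2 and 3, and 0.0887 to 0.0999 for induced 1, 2 and 3). It was also lost without CFPAC-1 induced 2 (-1.29, adjusted p = 0.152) or induced 3 (-1.29, adjusted p = 0.153).

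TFF1, the peptide of gastric surface cells and an oestrogen-responsive gene in breast cancer (chr21:42362282-42366594), was 16.3, 4.16 and 3.62 FPKM in induced BxPC-3 libraries, against 1.75, 11.8 and 10.3 FPKM in BxPC-3 controls. The libraries numbered 1 ran opposite to those numbered 2 and 3, and the groups overlapped. The change was 0.02 (SE 0.61, 95% interval -1.31 to 1.35, adjusted p = 1). In CFPAC-1 it was 1.055, 2.31 and 3.21 FPKM in induced libraries, against 0.305, 0.659 and 0.746 FPKM in controls. These ranges did not overlap, as for 14% of tested genes in that direction, and the change of 0.97 (SE 0.61, adjusted p = 0.27) did not pass, nor did that of 1.23 (SE 0.91, adjusted p = 0.538) without controls 2 and 3. Between the induced lines the difference was 1.28 (95% interval -0.05 to 2.62, adjusted p = 0.122).

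TFF3, the trefoil peptide of intestinal goblet cells (chr21:42311667-42315651), was under the level for testing. It was 0.360, 0.442 and 0.649 FPKM in induced BxPC-3 libraries, against 0.229, 0.0965 and 0.0815 FPKM in BxPC-3 controls. Its BxPC-3 ranges did not overlap, as for 12.4% of tested genes in that direction. In CFPAC-1 it was 0, 0.0853 and 0 FPKM in induced libraries, against 0, 1.45 and 0.570 FPKM in controls. Controls 2 and 3 thus held the most TFF3 of that line while MUC1, MUC13 and TFF2 were lowest there.

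Ordered by group mean, MUC4, MUC20, MUC16, TFF1, MUC5AC and MUC5B were higher in both BxPC-3 groups than in either CFPAC-1 group. The lower BxPC-3 group and the higher CFPAC-1 group overlapped for TFF1, MUC5AC and MUC5B. They did not overlap for MUC4, MUC20 and MUC16, of which MUC4 and MUC20 entered the test through BxPC-3 alone. The share of tested genes without overlap was not computed for these pairs of groups. Between the induced lines, a different pair, it was 54.5%. For MUC1 no neighbouring groups in the order differed beyond their ranges (CFPAC-1 induced, BxPC-3 induced, BxPC-3 control, CFPAC-1 control). For TFF2 the order was CFPAC-1 induced, BxPC-3 induced, BxPC-3 control and CFPAC-1 control, with the last 2 overlapping. For TFF1, CFPAC-1 control was under CFPAC-1 induced without overlap and the remaining neighbours overlapped.

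**Figure D2:**
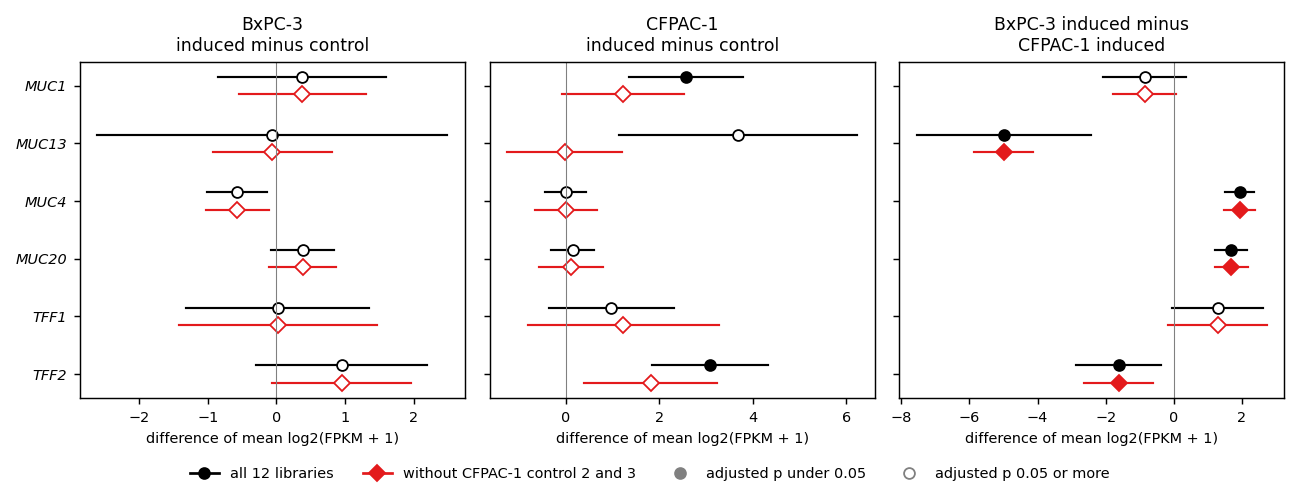
Difference of mean log2(FPKM + 1) for the 6 tested genes in 3 contrasts, with 95% intervals (bars), fitted with all 12 libraries (circles) and without CFPAC-1 controls 2 and 3 (diamonds); filled symbols passed an adjusted p of 0.05. In CFPAC-1 the values for MUC1, MUC13 and TFF2 are 2.57, 3.68 and 3.08 with all libraries and 1.23, -0.03 and 1.82 without those controls.

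Whether the response to starvation differed between the lines was tested as the difference of the changes, BxPC-3 minus CFPAC-1. None of the 6 genes passed by limma, where 2.45% of tested genes did. At an unadjusted p under 0.05 there were 3 of the 6, against 3121 of 12860 tested genes. Their differences were -2.19 for MUC1 (adjusted p = 0.133), -3.74 for MUC13 (0.193) and -2.13 for TFF2 (0.145). Without CFPAC-1 controls 2 and 3 the differences were -0.85, -0.03 and -0.86, none passed, and 0.428% of tested genes did. Without control 1 instead, they were -2.86 (adjusted p = 0.00436), -5.59 (4.59e-05) and -2.76 (0.00848), so the call for these genes depended on which CFPAC-1 controls were used.

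The libraries numbered 1 also gave other changes than those numbered 2 and 3. The labels do not call this number a batch, and with 1 library a group in the first set there is no test. In BxPC-3 the TFF1 change was 2.66 between libraries 1 and -1.30 between the means of libraries 2 and 3, on the log2 scale. MUC1 changed by 1.12 in the first set and 0.00 in the second, and MUC4 by 0.08 and -0.89. TFF2 (1.07 and 0.90), MUC20 (0.43 and 0.36) and MUC5AC (-0.10 and -0.25) changed in the same direction in both sets. In CFPAC-1 the changes were 0.18 and 3.76 for MUC1, -1.15 and 6.09 for MUC13, and 0.50 and 4.37 for TFF2. TFF1 there moved by 0.66 and 1.13.

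**Figure D3:**
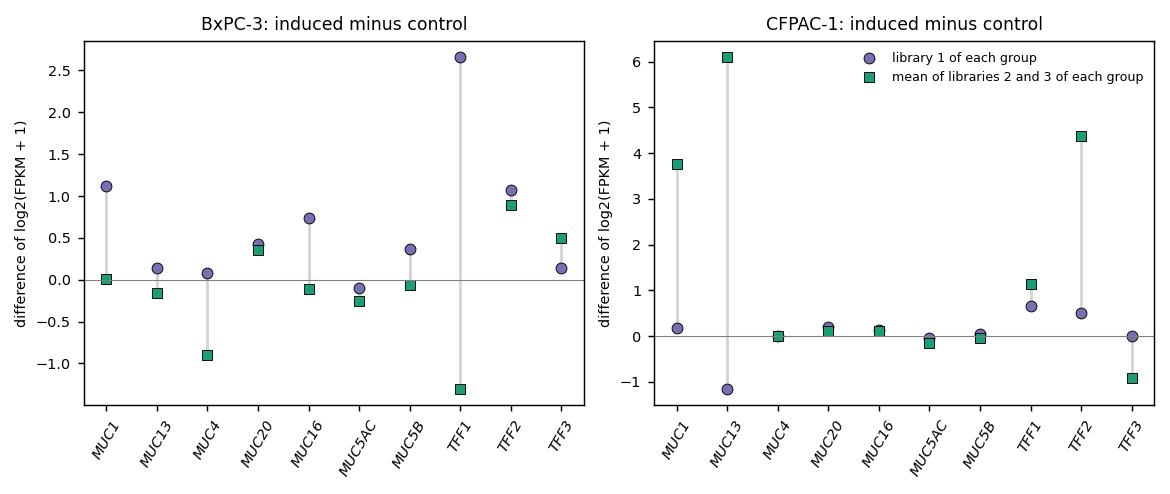
Induced minus control difference of log2(FPKM + 1) for the 10 genes in BxPC-3 and CFPAC-1, between libraries 1 (circles) and between the means of libraries 2 and 3 (squares). TFF1 in BxPC-3 lies at 2.66 and -1.30, and MUC13 in CFPAC-1 at -1.15 and 6.09.

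Since FPKM is scaled by transcript length, the 10 genes can be summed into a make-up per library. The sum was 49.6, 25.0 and 23.7 FPKM in induced BxPC-3 libraries, against 18.9, 33.9 and 28.4 FPKM in BxPC-3 controls, with overlap. In CFPAC-1 it was 38.3, 125.8 and 134 FPKM in induced libraries, against 59.8, 4.01 and 3.49 FPKM in controls. MUC13 held 53.0%, 49.3% and 54.5% of the sum in induced CFPAC-1 libraries and 77.2% in control 1. MUC1 was the leading gene in induced BxPC-3 libraries, with 37.1%, 40.3% and 40.9% of the sum. In BxPC-3 controls MUC1 led in control 1 (41.9%) and TFF1 in controls 2 and 3 (34.7% and 36.4%). Trefoil factors held 42.4%, 38.2% and 37.0% of the sum in induced BxPC-3 libraries, against 18.6%, 42.3% and 42.7% in BxPC-3 controls. Their share was 18.0%, 22.5% and 21.8% in induced CFPAC-1 libraries, against 6.95% in CFPAC-1 control 1 and 58.6% and 48.1% of much smaller sums in controls 2 and 3. Gel-forming mucins held at most 5.88% in any library.

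**Figure D4:**
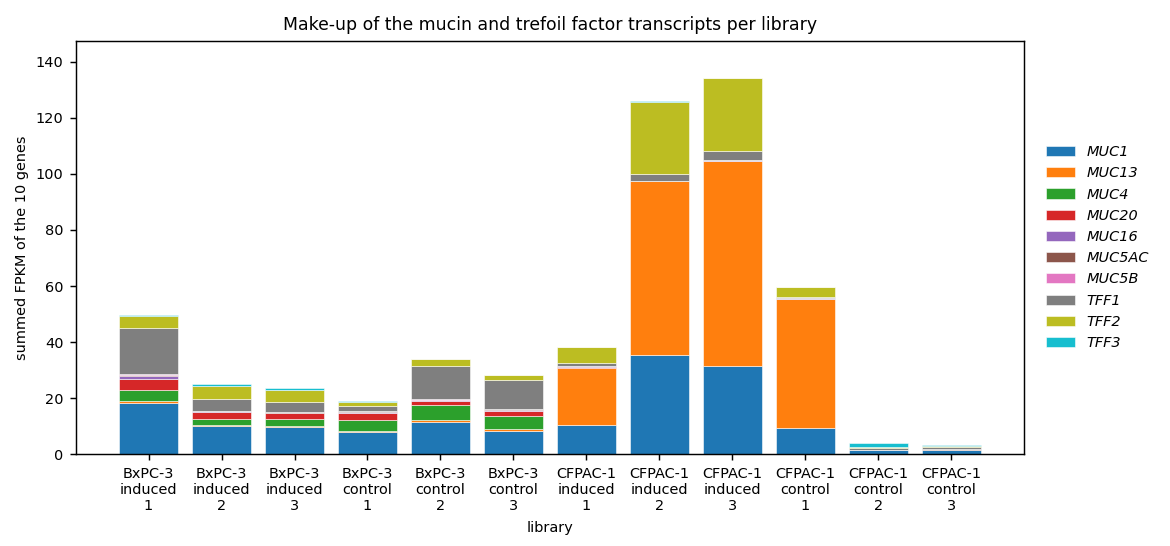
Summed FPKM of the 10 genes in each of the 12 libraries, stacked by gene. MUC13 fills 49.3% to 77.2% of the bar in CFPAC-1 induced libraries and control 1 and is at 0 in controls 2 and 3, whose sums are 4.01 and 3.49 FPKM, while MUC1, TFF1, TFF2, MUC4 and MUC20 share the BxPC-3 bars.

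Genes next to these loci did not all follow them. Those given here are examples from the coding genes within 100 kb, and the rest are not listed. THBS3, a thrombospondin gene 2672 bases from MUC1, was 5.26, 11.6 and 11.3 FPKM in induced CFPAC-1 libraries, against 5.27, 2.40 and 2.44 FPKM in CFPAC-1 controls. As for MUC1, induced 2 and 3 were highest and controls 2 and 3 lowest. TRIM46, 853 bases from MUC1, was 1.04, 1.17 and 1.14 FPKM in induced CFPAC-1 libraries, against 0.709, 0.278 and 0.368 FPKM in controls. SCAMP3, 63063 bases from MUC1, went the other way, at 28.3, 27.6 and 24.7 FPKM in induced CFPAC-1 libraries, against 30.1, 47.8 and 48.2 FPKM in controls. The integrin gene ITGB5, 4024 bases from MUC13, was 25.3, 32.4 and 33.0 FPKM in induced CFPAC-1 libraries, against 24.6, 70.7 and 69.0 FPKM in controls. HEG1, a mucin-like membrane protein gene 11891 bases from MUC13, was 0.615, 0.336 and 0.508 FPKM in induced CFPAC-1 libraries, against 0.337, 9.07 and 8.93 FPKM in controls. ITGB5 and HEG1 were thus highest in the 2 controls where MUC13 was listed at 0. The protease gene TMPRSS3, 5243 bases from TFF1, was 1.52, 1.39 and 1.39 FPKM in induced CFPAC-1 libraries, against 0.312, 0 and 0 FPKM in controls.

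Among tested genes, those most like each member over the 12 libraries were found by Pearson's r of log2(FPKM + 1). Genes with clone names or LINC, MIR, RNU, SNOR and similar symbols were left out of this ranking. These are descriptions, since the libraries share lines and the split of the CFPAC-1 controls. MUC13 was closest to the monoamine oxidase MAOB and the surface peptidase DPP4 (r = 0.996 each). MUC4 was closest to ALDH1L1 (0.999) and CAPNS2 (0.998), and MUC20 to SPRR2F (0.993) and FYB1 (0.992). MUC1 was closest to the carbonyl reductase CBR3 (0.97) and the matrix protein ECM1 (0.956), TFF2 to CFDP1 (0.979) and C15orf62 (0.954), and TFF1 to BRD1 (0.954) and SLURP2 (0.952). Within the 6 tested members the closest pairs were MUC1 with TFF2 (0.919) and MUC4 with MUC20 (0.91), while TFF1 and TFF2, 11154 bases apart, had an r of 0.135.

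Genes of the pathway were counted between the induced lines only where they reached 1 FPKM in at least 1 library of each line. A gene under 1 FPKM throughout a line entered the test through the other line and was thus likely to differ. Of 1482 tested genes of that kind, 1210 passed. Of all genes that reached 1 FPKM in both lines, 30.3% passed (3450 of 11378, 2185 higher and 1265 lower in BxPC-3). Of the 13 tested GALNT enzymes, which add the first O-linked sugar, 9 qualified, and 5 were higher and 0 lower in induced BxPC-3 than in induced CFPAC-1 cells. The remaining 4 were GALNT3, GALNT14 and GALNT18, under 1 FPKM throughout CFPAC-1, and GALNT9, under 1 FPKM throughout BxPC-3. GALNT3 was 13.3, 12.0 and 12.0 FPKM in induced BxPC-3 libraries, against 0.0107, 0 and 0.0118 FPKM in induced CFPAC-1 libraries (log2 difference 3.73, adjusted p = 2.42e-08). GALNT18 differed by 2.41 (adjusted p = 5.81e-06), and the abundant GALNT2 and GALNT1 by 1.25 (adjusted p = 0.00125) and 1.18 (adjusted p = 0.00522). GALNT14 and GALNT9 were named after their values were seen. Of 19 tested enzymes that extend and cap the chains, 14 qualified, and 5 were higher and 2 lower in BxPC-3. Those lower, named after their values were seen, were ST3GAL4 and GCNT3, the branching enzyme of mucous epithelia, at 1.14, 1.061 and 0.846 FPKM in induced BxPC-3 libraries, against 6.41, 23.7 and 23.4 FPKM in induced CFPAC-1 libraries (log2 difference -3.03, adjusted p = 0.00836). FUT8, also named after its value was seen and counted among the higher ones, acts on N-linked rather than O-linked chains.

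FUT3, the Lewis fucosyltransferase that completes the sialyl Lewis a epitope measured in pancreatic cancer serum, was the one enzyme of both lists to pass in BxPC-3. It was 6.20, 5.13 and 4.44 FPKM in induced BxPC-3 libraries, against 1.78, 1.72 and 1.37 FPKM in BxPC-3 controls. Its induced libraries were all above its controls there, as for 12.4% of tested genes. It rose by 1.25 (SE 0.16, adjusted p = 0.00802), in a line where 0.295% of tested genes rose. The call was lost without BxPC-3 control 2 (adjusted p = 0.0529), control 3 (0.065) or induced 2 (0.0532), with a pseudocount of 0.1 (0.201), in a fit of the 2 groups alone (0.0782) and with library number as a block within each line (0.0935). FUT3 was at most 0.134 FPKM in induced CFPAC-1 libraries and at most 0.0777 FPKM in CFPAC-1 controls. FUT3 has near-identical neighbours in FUT5 and FUT6, so its value may include their reads. By limma none of the 13 GALNT enzymes passed in BxPC-3 (1 at an unadjusted p under 0.05, as were 1096 of 12860 tested genes).

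**Figure D5:**
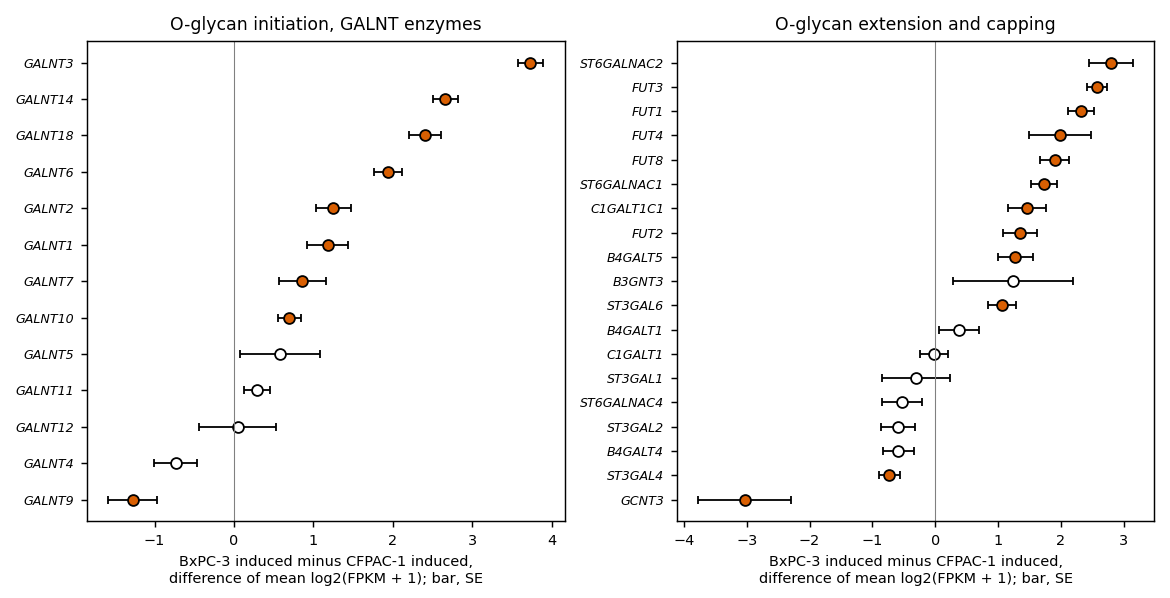
Difference of mean log2(FPKM + 1), BxPC-3 induced minus CFPAC-1 induced, with SE bars, for the 13 tested GALNT enzymes (left) and the 19 tested enzymes of O-glycan extension and capping (right); filled points passed an adjusted p of 0.05, and 4 enzymes on the left and 5 on the right were under 1 FPKM throughout 1 line. GALNT3 (3.73) and FUT3 (2.58) lie among the highest and GCNT3 (-3.03) is the lowest.

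In CFPAC-1, where 16.6% of all genes passed, 2 GALNT enzymes rose and 3 fell, 2 extension enzymes rose and 1 fell. None of these calls held without controls 2 and 3, where control 1 alone was left. GALNT10, one of the 3, was 4.63, 4.14 and 4.33 FPKM in induced CFPAC-1 libraries, against 8.84, 9.64 and 9.37 FPKM in CFPAC-1 controls. Its groups did not overlap even with control 1, as for 17.6% of tested genes in that direction. It fell by 0.94 on the log2 scale (adjusted p = 0.00339). Without controls 2 and 3 the change was -0.88 and the call was lost.

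Of 18 tested genes of the mucous secretory programme, 13 reached 1 FPKM in both lines, and 5 of these were higher and 1 lower in induced BxPC-3 than in induced CFPAC-1 cells, against 30.3% called among all such genes. The pioneer factor FOXA1, under 1 FPKM throughout CFPAC-1 and so tested through BxPC-3 alone, was 10.7, 4.80 and 4.29 FPKM in induced BxPC-3 libraries, against 0.151, 0.101 and 0.120 FPKM in induced CFPAC-1 libraries (log2 difference 2.66, adjusted p = 3.06e-05). By limma none of the 18 passed in BxPC-3 (2 at an unadjusted p under 0.05, as were 1096 of 12860 tested genes). In CFPAC-1, 2 fell, MARCKS and, named after its value was seen, FOXA2, and MARCKS lost its call in 15 of 22 alternatives. AGR2, the disulfide isomerase needed for mucin folding in the mouse gut, was 4.84, 16.2 and 16.6 FPKM in induced CFPAC-1 libraries, against 0.832, 115 and 114 FPKM in CFPAC-1 controls. Its change of -1.27 (adjusted p = 0.493) turned to a rise of 2.72 without controls 2 and 3, against control 1 alone. Against control 1 alone, the gut and liver factor HNF4A, named after its value was seen, changed by -0.96.

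Of 16 tested gastric and classical tumour surface genes, 11 were under 1 FPKM throughout 1 line and were thus likely to differ. Of the other 5, 2 were higher and 0 lower in induced BxPC-3 than in induced CFPAC-1 cells. Among all genes that reached 1 FPKM in both lines, 30.3% were called. The adhesion protein CEACAM6 was higher in BxPC-3 by 4.17 (adjusted p = 0.000122), and the annexin ANXA10, tested through BxPC-3 alone, by 4.04 (adjusted p = 3.6e-07). The intestinal cadherin CDH17, tested through CFPAC-1 alone, was lower (log2 difference -6.60, adjusted p = 0.0044). S100P, a calcium-binding protein common in pancreatic cancer, was 70.7, 83.4 and 82.0 FPKM in induced CFPAC-1 libraries, against 24.9, 2.16 and 3.01 FPKM in CFPAC-1 controls. It rose there by 3.53 (adjusted p = 0.00588, and 0.0824 in a fit of the 2 groups alone), and by 1.62 without controls 2 and 3, against control 1 alone.

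Of 18 tested partners and sheddases of mucins and trefoil factors, all of which reached 1 FPKM in both lines, 6 were higher and 3 lower in induced BxPC-3 than in induced CFPAC-1 cells, against 30.3% called among all such genes. MSLN, the mesothelin that binds MUC16, was 2.52, 0.664 and 0.464 FPKM in induced BxPC-3 libraries, against 150.4, 183 and 157 FPKM in induced CFPAC-1 libraries (log2 difference -6.32, SE 1.16, adjusted p = 0.00171), the opposite order to MUC16 itself. MMP14, a membrane protease that sheds MUC1, was higher in BxPC-3 by 2.98 (adjusted p = 0.000132), and ADAM17, another of its sheddases, was lower (log2 difference -1.86, adjusted p = 0.000391). SRC was higher in BxPC-3 by 1.87 (adjusted p = 0.000395) and the galectin LGALS1 was lower (log2 difference -1.71, adjusted p = 0.00132). In CFPAC-1, MSLN, ADAM17 and MMP14 rose and F2RL1, named after its value was seen, fell. None of these CFPAC-1 calls held without controls 2 and 3. Against control 1 alone, MSLN, ADAM17 and MMP14 changed by 0.96, 0.64 and 0.70. By limma none of the 18 passed in BxPC-3 (1 at an unadjusted p under 0.05, as were 1096 of 12860 tested genes). The rises of MSLN, ADAM17 and MMP14 were each lost without control 2 alone (adjusted p = 0.0975, 0.116 and 0.0636) and without control 3 alone (0.0988, 0.095 and 0.0644). Leaving out 1 induced CFPAC-1 library also ended the call of ADAM17 (induced 1 or 3), MMP14 (induced 2) and MSLN (induced 2 or 3), at adjusted p-values of 0.0534 to 0.069.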

How the data were processed

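RNA-seq values for 12 libraries were used. The authors deposited log2 values, log2(FPKM + 1), per the file headers and the values. Total RNA was extracted with TRIzol, per the labels' protocols. FastQC, StringTie and GRCh38 are named without versions, per the submitters' processing notes. For the aligner, annotation and strand setting, the answer is not given in the sources used here. FPKM is relative to each library's total, so abundant transcripts shift the rest. Depth is unknown, so no counting interval is given.

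The log2 offset was undone to recover FPKM. Of 60564 gene identifiers, 58457 (96.5%) were found in GENCODE release 29. Tests used limma 3.58.1 (R 4.3.3) on log2(FPKM + 1): 4 group means, 8 residual degrees of freedom, two-sided tests and Benjamini-Hochberg adjustment over 12860 genes. It was tested on simulated data. Differences on this scale understate changes of low genes.

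Members and the 6 lists were chosen with earlier results of these data known. Named from each list were at most 4 genes of highest mean and those called in a BxPC-3 contrast, up to 6, and others are marked as named after their values were seen. Alternatives covered pseudocount, filters, scaling, variance settings, a block and left-out libraries.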

Additional observations from a re-analysis of the deposited data

Results flagged for a closer look

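In 4 genes of the sugar enzyme and surface gene lists, the change with starvation differed between the lines. The test was that of the difference (limma, BxPC-3 minus CFPAC-1, adjusted over all tested genes). They were 2 of 13 tested GALNT enzymes, 1 of 19 extension and capping enzymes and 1 of 16 surface genes. Of all tested genes, 2.45% passed. FUT3 and GALNT18 were under 1 FPKM throughout CFPAC-1 and entered the test through BxPC-3 alone. Near 0 there, they had little room to fall, and their calls are not counted as support. In BxPC-3 and CFPAC-1, FUT3 changed by 1.25 and 0.02, and GALNT18 by 0.86 and -0.41. FUT3 differed by 1.22 (adjusted p = 0.0243, and 0.0941 without CFPAC-1 controls 2 and 3). The difference was lost in 11 of 20 alternatives (adjusted p 0.00178 to 0.13). GALNT10 differed by 1.061 (adjusted p = 0.0293, and 0.111 without those controls), with the call lost in 11 of 21 alternatives (0.00182 to 0.111). GALNT18 differed by 1.27 (adjusted p = 0.0444, and 0.184 without those controls), with the call lost in 14 of 20 alternatives (0.000708 to 0.184). GALNT18 was 3.47, 5.21 and 4.90 FPKM in induced BxPC-3 libraries, against 2.00, 1.87 and 2.19 FPKM in BxPC-3 controls. In CFPAC-1 it was 0.0271, 0.0547 and 0.0145 FPKM in induced libraries, against 0.033, 0.515 and 0.635 FPKM in controls. S100P differed by -4.32 (adjusted p = 0.0344), with the call lost in 12 of 21 alternatives (3.02e-06 to 0.113). S100P was 117.5, 117.6 and 115 FPKM in induced BxPC-3 libraries, against 134, 267 and 236 FPKM in BxPC-3 controls. For all 4, leaving out any one of the 8 libraries numbered 2 or 3 (BxPC-3 and CFPAC-1, induced and control) ended the call, at adjusted p-values of 0.0594 to 0.133.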

How the results depend on the processing

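Over 24 member results, 200 of 216 values under other settings and 267 of 288 with 1 library left out kept their direction and side of the threshold. Without CFPAC-1 controls 2 and 3, the CFPAC-1 change of MUC13 reversed to -0.026 and that of MUC4 to 0.00082. With a pseudocount of 0.1 the difference of changes of MUC20 was -0.27. The BxPC-3 change of TFF1 was -0.012 with quantile normalization and -0.023 rescaled without mitochondrial genes. With each library left out, MUC13 in BxPC-3 ran from -0.14 to 0.023, MUC4 in CFPAC-1 from -0.0043 to 0.0026 and TFF1 in BxPC-3 from -0.69 to 0.42. None of these was called. The cause was not tested.

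The MUC1 call in CFPAC-1 was also lost without a low-value filter (adjusted p = 0.0545), in a fit of the 2 groups alone (0.109) and with a block within each line (0.0604). Of 35 calls of named list genes, 22 held in every alternative run, and all 22 were between the induced lines. Among these, GALNT3, GALNT18, FUT1, FUT3, FOXA1, RAB27A, ANXA10, CDH17, TM4SF4 and VSIG1 entered the test through 1 line. Part of the named genes were chosen because they were called, so this tally is not counted as support. The 13 lost in at least 1 run were all of the calls for a change with starvation or a difference of changes. The TFF2 call in CFPAC-1 was lost in a fit of the 2 groups alone (0.0919). The MUC13 change in CFPAC-1 passed with a mean FPKM of at least 5 (0.047). The TFF2 call between the induced lines was lost with a pseudocount of 0.1 (0.124), without a filter (0.136) and rescaled without mitochondrial genes (0.0510).

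Counts of called genes in BxPC-3 (43 as reported) were 11 at a mean FPKM of at least 5, 73 without a filter, 13 from the 2 groups alone, 25 with a pseudocount of 0.1 and 2 to 249 with 1 library left out. In CFPAC-1 (2138) they were 1329 at the mean of 5, 364 from the 2 groups alone, 222 without controls 2 and 3 and 506 to 5403 with 1 library left out. For the difference of the changes (315) they were 162 at the mean of 5, 163 with a pseudocount of 0.1, 55 without controls 2 and 3 and 0 to 4148 with 1 library left out, the 0 by limma without BxPC-3 control 2 (2281 genes at an unadjusted p under 0.05). Between the induced lines (4660) they were 2140 at the mean of 5 and 3428 to 6078 with 1 library left out. Higher and lower calls split as 2348 and 2402 with quantile normalization between the induced lines (2751 and 1909 as reported). The split in CFPAC-1 was 774 and 1765 rescaled without mitochondrial genes (1010 and 1128 as reported).

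The labels number libraries 1 to 3 in every group without naming a pairing. Deviations of same-numbered libraries correlated at 0.0535 to 0.151 in BxPC-3 and at -0.0798 to -0.0198 in CFPAC-1, and not every library correlated best with its own number. With a replicate block the counts were 33 in BxPC-3, 2428 in CFPAC-1, 306 for the difference and 4881 between the induced lines, and the TFF2 call between the lines had an adjusted p of 0.0714. With a block within each line, chosen after seeing the data, limma called 0 genes in BxPC-3 (1148 at an unadjusted p under 0.05) and 2 for the difference. Without read counts, levels under about 1 FPKM, those of MUC5AC, MUC5B, MUC16 and TFF3, carry no error beyond 3 libraries.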
